A study of Bos taurus with 22 samples.

Results

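S100G, VDR, ATP2B1, ATP2A2 and TRPV6 are genes of calcium handling, and their transcripts were examined in subcutaneous adipose tissue of dairy cows after and before a first calving. They were taken as every array probe set whose single gene symbol was one of these names. This gave 8 of 24016 bovine probe sets: 1 for S100G, 3 for ATP2B1 and 4 for ATP2A2. No probe set carried the single symbol VDR or TRPV6, so these 2 genes were not analysed here. A filter on low signal kept 7 of the 8, and the remaining probe set, for ATP2A2, was too dim to judge. Probe sets of a gene are numbered from the highest mean signal down. S100G and the genes that act with it were chosen from earlier results of the postpartum against prepartum contrast in these same arrays.

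Calcium enters absorbing epithelial cells of mammals through the channel TRPV6, is carried across the cytosol by the small EF-hand buffer S100G (calbindin-D9k), and leaves through plasma membrane pumps such as ATP2B1. In the intestine the vitamin D receptor, VDR, raises transcription of the channel and of the buffer. ATP2A2 (SERCA2) is the pump that fills the endoplasmic reticulum, and in muscle the sarcoplasmic reticulum, with calcium. The onset of milk secretion makes a large demand on calcium in cows.

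The study sampled dorsal subcutaneous fat of 11 Holstein heifers, which calved at 24 to 28 months of age, 14 days postpartum and 30 days prepartum. Each cow gave 1 array per time, so that 11 postpartum arrays were set against 11 prepartum arrays of the same animals, all raised on the same farm. No dietary treatment was applied, but the ration described for the postpartum period is not the prepartum one, so lactation, days relative to calving and ration cannot be told apart. A code of unstated meaning at the end of the titles divides the cows into array set 2, with 6 cows, and array set 1, with 5, and no cow is divided between them.

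Values are MAS5 signals in arbitrary linear units, and changes are postpartum minus prepartum within a cow, on the scale log2(signal + 7.78). The fat markers were present: 13 of 15 adipocyte markers were kept, with summed signals of 16820 to 34261 postpartum and 24471 to 36315 prepartum, while PLIN1 and PLIN4 gave no kept probe set. Several arrays stood apart. The median of 11 skeletal muscle markers, each relative to its own median over arrays, was 7.84 log2 units for cow 384 postpartum and 7.42 for the sample labelled cow 387 prepartum. The next highest values were 3.73 for cow 386 postpartum and 2.66 for cow 384 prepartum. Of 13 epidermis markers 2 were kept, KRT10 and KRT5. KRT10, a keratin of the epidermis, reached 641 to 6002 in the prepartum arrays of cows 330, 331, 341 and 382 against at most 130 in all others. The KRT5 signal of those arrays overlapped that of the other prepartum arrays, so only KRT10 of the kept epidermis markers set them apart. The arrays labelled cow 387 did not resemble each other once group means were subtracted (r = -0.09 over kept probe sets, against 0.18 to 0.43 for the other 10 cows), so the pairing of that cow is in doubt. The postpartum array of cow 384 matched the prepartum one labelled cow 387 best (r = 0.64, against 0.21 with its own). These were the arrays with the highest muscle markers. For both cows, a wrong pairing and muscle content of the samples cannot be told apart here. Changes within cow 384 are therefore uncertain as well. In all, 6 of 11 postpartum arrays were closest to the prepartum array of another cow. RNA quality, read from the 3 prime over 5 prime ratio of GAPDH, changed by 0.03 log2 units within cows (SD 0.28, n = 11 cows). That ratio was uneven between arrays, from -0.10 to 1.26 log2 units postpartum and from -0.05 to 0.62 prepartum.

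S100G was a strongly hybridising transcript of this fat and had a lower signal postpartum in 11 of 11 cows. Its signal ran from 136 over a median of 949 to 3574 in the 11 postpartum arrays, against 1386, 2907 and 3845 in the 11 prepartum arrays. The highest signal of any probe set on the arrays was 12550, and whether the S100G signal neared a ceiling of its own was not tested. Of the 11 postpartum arrays, 8 lay below the lowest prepartum array, and those of cows 331, 338 and 347, all in array set 1, lay within the prepartum range. The mean change was -1.62 log2 units (SE 0.40, SD 1.31, n = 11 cows), a 3.08-fold lower level. Since this contrast chose the genes, these values are a description and no test is given. For scale, 1.19% of the 14410 kept probe sets were lower in 11 of 11 cows.

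In bulk tissue, fewer cells of a type and less RNA per cell cannot be told apart. The size of the S100G difference varied widely between cows. In cow 331 the signal was 3574 postpartum and 3608 prepartum, a change of -0.01 log2 units. The pair labelled cow 387 also differed little, with 1282 postpartum and 1386 prepartum. Cows 338 and 347 had changes of -0.47 and -0.53. The other 7 cows ranged from -1.30 in cow 386, with 952 postpartum and 2354 prepartum, to -4.34 in cow 384, with 136 postpartum and 2907 prepartum.

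**Figure D1:**
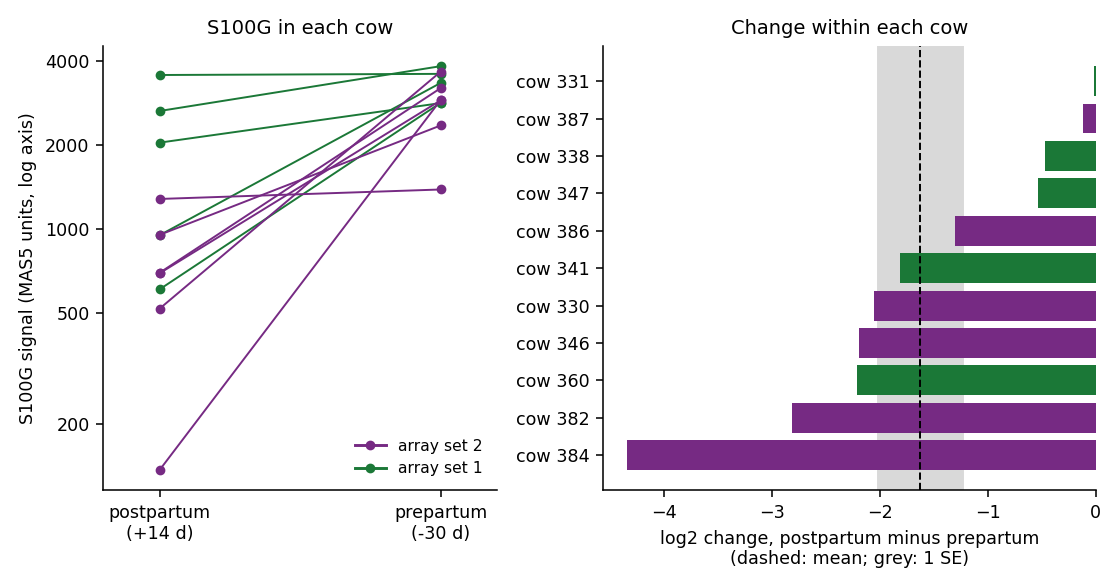
Left: S100G signal (MAS5 units, log axis) of each cow postpartum and prepartum, with a line joining the arrays of 1 cow and colour giving the array set. Right: log2 change within each cow, with the mean of -1.62 dashed and 1 SE over cows (0.40) shaded; bars run from -0.01 in cow 331 to -4.34 in cow 384.

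The spread between cows was wider after calving than before it, a difference that was not tested. The SD of S100G over cows was 1.27 log2 units postpartum and 0.41 prepartum. Both arrays that stood lowest within their time carried high skeletal muscle markers: cow 384 postpartum (136) and the array labelled cow 387 prepartum (1386). The arrays with the next highest muscle markers did not stand low. Cow 386 postpartum had 952, against a median of 949, and cow 384 prepartum had 2907, the prepartum median. Without cows 384 and 387 the SD was 1.01 postpartum and 0.23 prepartum. The mean change was then -1.49 (SD 0.96), a 2.81-fold lower level in 9 of 9 cows. In those 9 cows the lowest prepartum signal was 2354, and 7 postpartum arrays lay below it. Without cows 330, 331, 341 and 382, whose prepartum arrays had high KRT10, the mean change was -1.59 (SD 1.47, n = 7 cows).

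No relation between the postpartum and prepartum levels of S100G was detected over cows. The 11 pairs of values had Pearson r = 0.07 (permutation p = 0.823) and Spearman rho = 0.03 (permutation p = 0.946), both two-sided, a relation computed after the data were seen. Pearson r was 0.17 without cows 347 and 387, the pair farthest from the prepartum median, and 0.32 without cows 384 and 387.

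The 3 postpartum arrays with the lowest median of adipocyte markers had the least S100G, although single markers differed. FABP4 in cow 382 had 10489 postpartum and 8399 prepartum, while ADIPOQ in cow 384 had 736 and 2091. The marker list holds LEP and AQP7, which are also among the genes most like S100G given below. The median of the 13 kept adipocyte markers, on the same relative scale, was -1.72 log2 units in cow 384 postpartum, -0.70 in cow 360 and -0.69 in cow 382. These were also the 3 postpartum arrays with the least S100G signal (136 in cow 384, 517 in cow 382 and 606 in cow 360). In the other 8 postpartum arrays the marker median lay between -0.24 and 0.33, although S100G ran from 693 to 3574 there. Of the 13 adipocyte markers, 3 fell (LPL, GPD1 and LEP) and 0 rose in limma's test, and their median change was -0.21. Among all 6984 kept genes, 2.16% were called lower and 1.55% higher. The part of adipocyte content in the S100G values was not tested.

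As background for the whole contrast, limma's test over all 14410 kept probe sets called 3.43%, 1.98% lower and 1.44% higher postpartum.

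It was also asked whether the change differed between the array sets. S100G changed by -2.13 log2 units in array set 2 (SD 1.42, n = 6) and by -1.01 in array set 1 (SD 0.95, n = 5). The difference of -1.13 (SE 0.62) did not pass limma's interaction test (adjusted p = 0.997, and 0.0926 unadjusted). It was -0.69 without cow 384 and -1.53 without cow 387, again not passing limma's test (adjusted p = 0.906 and 0.949). No member probe set passed that limma test, against 0.0% of the 14410, of which 516 had an unadjusted p under 0.05. For the brightest probe set of ATP2B1 the difference was 0.33 (SE 0.21, limma adjusted p = 0.997).

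ATP2B1 is a pump that moves calcium out of the cell, and its 3 probe sets differed in the sign of their mean change. Its probe set 1 had signals of 320, 400 and 589 (lowest, median and highest) postpartum, against 315, 435 and 643 prepartum. The groups overlapped, with 3 prepartum arrays above the highest postpartum one, and the mean change was -0.11 log2 units (SE 0.11, SD 0.38, n = 11), lower in 8 of 11 cows. Cow 384 had the largest positive change, with 549 postpartum and 319 prepartum (0.77 log2 units). Without cows 384 and 387 the mean was -0.22 (SD 0.25), lower in 8 of 9 cows, and in array set 1 it was lower in 5 of 5.

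The 2 other ATP2B1 probe sets differed from the first in single cows. Probe set 2 had 80.3, 127 and 309 postpartum, against 84.1, 137 and 194 prepartum, a mean change of 0.11 (SE 0.20, SD 0.66). Its highest postpartum array was again cow 384. Probe set 3 had 70.3, 123 and 239 postpartum, against 75.9, 135 and 248 prepartum, a mean change of -0.11 (SE 0.21, SD 0.70). There cow 346 stood apart with 239 postpartum and 75.9 prepartum (1.56 log2 units), while cow 384 was lower after calving (-0.63). For each probe set the mean change was smaller than the SD between cows.

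**Figure D2:**
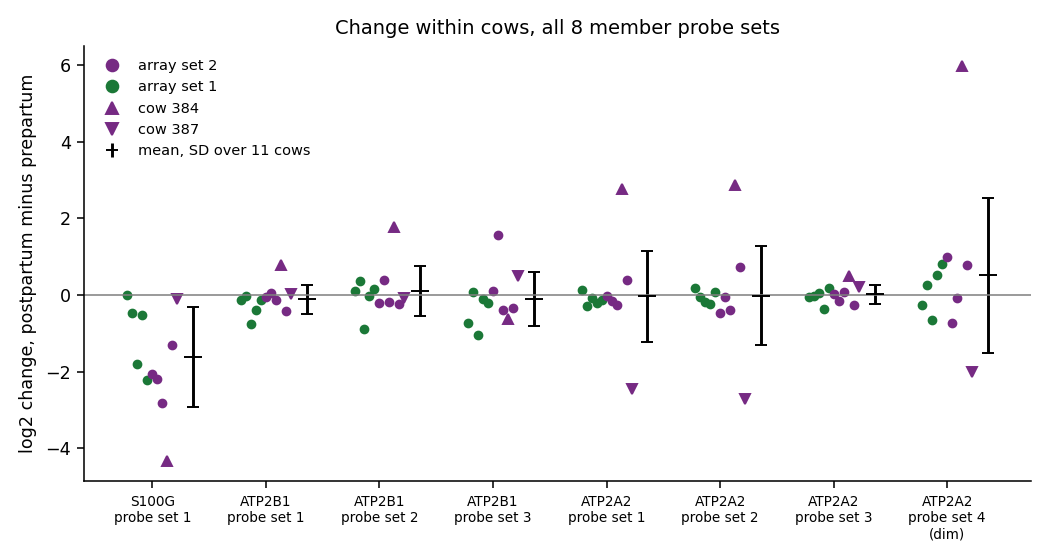
Log2 change (postpartum minus prepartum) within each of 11 cows for all 8 member probe sets, coloured by array set, with triangles for cows 384 and 387 and the mean with SD beside each column. All 11 S100G points lie below 0, whereas ATP2B1 and ATP2A2 scatter around 0. The outlying points are cows 384 and 387 in ATP2A2 probe sets 1, 2 and 4, and cows 341, 346 and 384 in ATP2B1.

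The mean changes of ATP2A2 were close to 0, and 2 of its probe sets were dominated by the muscle-rich arrays. Probe set 1 had 476, 549 and 4970 (lowest, median and highest) postpartum, against 527, 605 and 2916 prepartum. The mean change was -0.03 log2 units (SE 0.36, SD 1.19, n = 11), lower in 8 of 11 cows. The highest values were 4970 for cow 384 postpartum and 2916 for the sample labelled cow 387 prepartum, and the other 20 arrays lay between 476 and 722.

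Probe set 2 behaved alike, with 4202 and 2029 in these 2 arrays against 283 to 570 in the other 20. Its mean change was -0.02 (SE 0.39, SD 1.29). Without cows 384 and 387 the mean changes were -0.07 (SD 0.22, n = 9) for the first and -0.05 (SD 0.36, n = 9) for the second probe set.

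Probe set 3 of ATP2A2 differed far less in the muscle-rich arrays, although its highest signal was that of cow 384 postpartum. It had 271 in the postpartum array of cow 384 and 218 in the prepartum array labelled cow 387, against 180 to 257 in the other 20 arrays. Its change was 0.01 (SE 0.07, SD 0.24, n = 11), higher in 6 of 11 cows. The dim probe set 4 had 713 in the postpartum array of cow 384 and 41.1 in the prepartum array labelled cow 387, against 3.27 to 31.3 elsewhere. It lay below the filter, so its mean change is not interpreted.

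Other calcium genes of muscle were high in the same arrays. ATP2A1 (SERCA1), the calcium pump of fast muscle fibres, had 7651 in the postpartum array of cow 384 and 4007 in the prepartum array labelled cow 387, against a median of 10.8 in the other 20 arrays. SLN, sarcolipin, a small membrane inhibitor of these pumps, had 8117 and 5102, against a median of 11.9. PLN, phospholamban, which restrains ATP2A2 in heart and slow muscle, was less distinct. One of its probe sets had 1321 and 398, against 60.2 to 422 in the other 20 arrays, another 824 and 522, against 114 to 802, and the third 1028 and 370, against 58.9 to 473. Skeletal muscle markers summed to 1978 to 72865 postpartum and to 1751 to 43791 prepartum over the 11 of 17 that were kept. Their part in the ATP2A2 values was not tested.

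**Figure D3:**
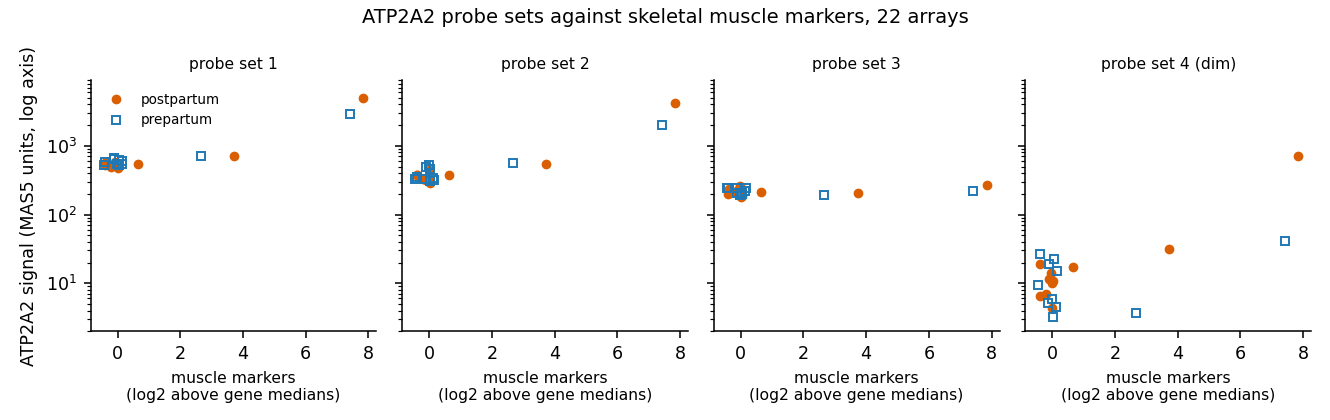
Signal (MAS5 units, log axis) of the 4 ATP2A2 probe sets against the median of 11 skeletal muscle markers, in log2 units above the gene medians, for 11 postpartum (circles) and 11 prepartum (squares) arrays. In the 2 arrays with markers above 7, probe sets 1 and 2 have signals of 2029 or more, while probe set 3 stays at 271 and 218.

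Whether cows with a larger S100G change also had other changes in ATP2B1 or ATP2A2 was tested over 11 cows for the 6 other kept probe sets. Pearson r ran from -0.71 (probe set 1 of ATP2A2, permutation p = 0.0261) to 0.11 (probe set 3 of ATP2B1, permutation p = 0.752). None of the 6 relations passed Benjamini-Hochberg adjustment (lowest adjusted permutation p = 0.134), and Spearman rho for probe set 1 of ATP2A2 was -0.27 (adjusted permutation p = 0.733). Without cows 331 and 384, which had the smallest and the largest S100G change, r for that probe set was -0.53, and without cows 384 and 387 it was 0.21. In array set 2 alone it was -0.89 over 6 cows, 2 of which are cows 384 and 387. Array set 1 has 5 cows, fewer than the 6 taken here as the least for a correlation. The brightest ATP2B1 probe set had r = -0.50 (permutation p = 0.118), and 0.03 without cows 331 and 384. Without cow 384 alone r was 0.07 for that ATP2B1 probe set and -0.37 for probe set 1 of ATP2A2. The relation with ATP2B1 probe set 1 therefore rests on cow 384, and that with ATP2A2 probe set 1 on cows 384 and 387 together. Probe set 3 of ATP2A2 had r = -0.56 (adjusted permutation p = 0.142). Its r was -0.47 without cows 384 and 387, and -0.19 without cows 331 and 384.

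The genes whose level most resembled that of S100G over the 22 arrays were ACER3 (Pearson r = 0.95, Spearman rho = 0.94), MTURN (r = 0.93, rho = 0.92), LEP (r = 0.93, rho = 0.86), LAMC1 (r = 0.92, rho = 0.88), AQP7 (r = 0.91, rho = 0.86) and TMSB15B (r = 0.91, rho = 0.88). These are the highest values among kept named genes and so carry no p. ACER3 is an alkaline ceramidase, LEP encodes the adipocyte hormone leptin, AQP7 is the glycerol channel of adipocytes and LAMC1 is a laminin chain of basement membranes. All 6 had lower means postpartum, and the 22 points share the 2 times, the cows and the muscle-rich arrays. Without cows 384 and 387, 2 of the 6 were still among the highest 6.

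Likeness was therefore also taken after the mean of each time was subtracted. ACER3 was again first (r = 0.91, rho = 0.89), followed by DDHD2 (r = 0.90, rho = 0.75), RGCC (r = 0.88, rho = 0.82), MTURN (r = 0.87, rho = 0.73), LEP (r = 0.87, rho = 0.82) and AQP7 (r = 0.87, rho = 0.73). Without cows 384 and 387 the ACER3 value was 0.88 and the LEP value 0.85, and 3 of these 6 genes were still among the highest 6. Cow 331, with the least change in S100G, had 457 LEP postpartum and 582 prepartum, and cow 384, with the largest, had 23.9 postpartum and 539 prepartum. ACER3 averaged a signal of 248 postpartum and 631 prepartum, and was lower in 11 of 11 cows.

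**Figure D4:**
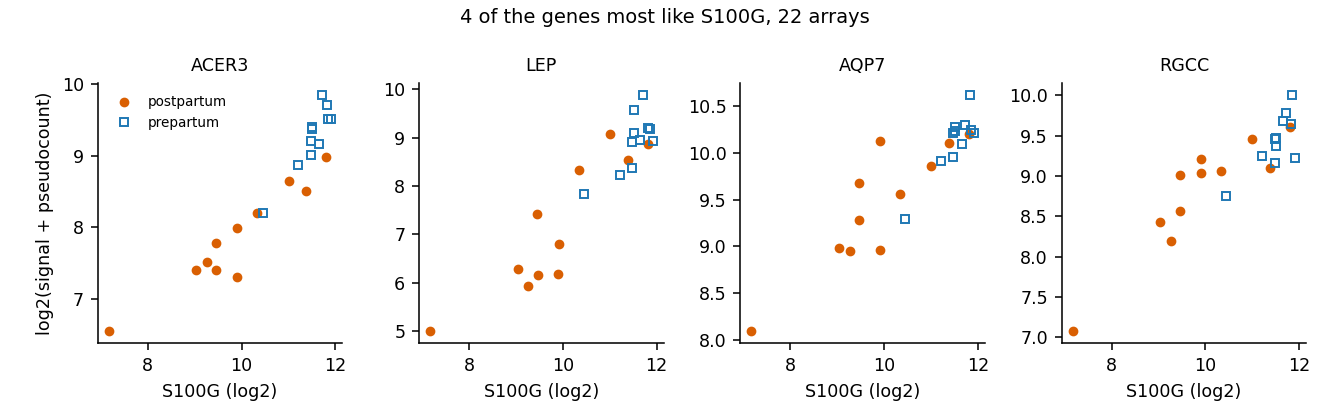
Level of ACER3, LEP, AQP7 and RGCC, as log2(signal + 7.78), against that of S100G on the 22 arrays (circles postpartum, squares prepartum). In each panel cow 384 postpartum lies at the lower left and most prepartum arrays at the upper right; r over 22 arrays was 0.95 for ACER3.

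A list of 135 other genes of calcium handling and of the S100 family put these members in context. Probe sets with the gene's symbol existed for 87, and 69 were kept. Of the 69, 1 rose and 2 fell in limma's test, against 3.71% of all 6984 kept genes (1.55% higher, 2.16% lower), so the share was close to that of all genes. The lists were drawn up with earlier results of this contrast known, so the p-values of their genes are not independent evidence. The SE given for list genes is limma's moderated SE. The median change of the 69 was -0.06 log2 units, and that of all kept genes was 0.01.

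The called genes were RAMP2, PTHLH and TMEM165. RAMP2, which joins the calcitonin receptor-like receptor CALCRL to make a receptor for adrenomedullin, had 478, 1216 and 1521 (lowest, median and highest) postpartum, against 618, 715 and 1045 prepartum. It rose 1.46-fold (log2 change 0.54, SE 0.12, limma adjusted p = 0.0276), in all cows but 384. CALCRL itself had a change of -0.15 (SE 0.18). Of 10 kept endothelial markers, 2 rose (TEK and VWF) and 0 fell in limma's test. Among all 6984 kept genes, 1.55% were called higher and 2.16% lower. The marker median was lower postpartum in 2 cows, 384 and 346. In cow 346 it was -0.18 postpartum and 0.01 prepartum, although RAMP2 was higher postpartum there. The 10 markers had a median change of 0.21. Their summed signal was 2307 to 5994 postpartum and 3572 to 4929 prepartum, and cow 384 had the lowest marker median postpartum (-0.80). Their part in the RAMP2 change was not tested.

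PTHLH, parathyroid hormone-related protein, a hormone that in lactating mammals mobilises bone calcium, was dim. It had 18.9, 29.8 and 84.3 postpartum, against 31.7, 76.7 and 201 prepartum. It fell 1.91-fold (log2 change -0.93, SE 0.22, limma adjusted p = 0.0324), in all cows but the pair labelled 387. TMEM165, a Golgi membrane protein of calcium and manganese homeostasis, had 76.7, 136 and 202 postpartum, against 113, 209 and 272 prepartum. It fell by 0.59 on the log2 scale (SE 0.13, limma adjusted p = 0.0206), in 9 of 11 cows.

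None of the 3 calls held with an ordinary paired test in place of limma's (adjusted p = 0.0691 for RAMP2, 0.0872 for PTHLH and 0.0563 for TMEM165). Without cows 330, 331, 341 and 382, whose prepartum arrays had high KRT10, the changes were 0.37 for RAMP2, -0.84 for PTHLH and -0.72 for TMEM165, none passing (limma adjusted p = 0.439, 0.412 and 0.158).

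By role, the vitamin D list kept 5 of 11 genes besides VDR, with 0 calls and changes between -0.34 and 0.26. The highest absolute change was that of CYP27A1, a mitochondrial hydroxylase able to hydroxylate vitamin D (-0.34, SE 0.16, lower in 10 of 11 cows, limma adjusted p = 0.262). Without cows 384 and 387 CYP27A1 was called (-0.37, limma adjusted p = 0.0178). RXRA, the partner receptor of VDR, had -0.09 (SE 0.11). In the entry list 6 of 19 were kept with 0 calls. CACNB3, a subunit of voltage-gated calcium channels, had 0.41 (SE 0.12, limma adjusted p = 0.0752), was higher in 9 of 11 cows and was called in 5 of 27 alternatives. STIM1, which senses an emptied store, had -0.24 (SE 0.08, limma adjusted p = 0.130), and the store-operated channels ORAI1 and ORAI3 had 0.23 (SE 0.17) and 0.22 (SE 0.11). In the extrusion list none of the 10 genes other than ATP2B1 was kept, and 4 of them had probe sets.

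Of 15 kept genes of the reticulum and Golgi stores, 11 had a negative change, and TMEM165 was the single call. CANX, the chaperone calnexin, had -0.26 (SE 0.08, limma adjusted p = 0.0878) and RCN1, a calcium-binding protein of the reticulum, -0.39 (SE 0.15, limma adjusted p = 0.168). The 4 kept mitochondrial genes had changes from -0.11 to -0.06, the 6 kept buffers and sensors besides S100G from -0.29 to 0.23, and the 14 kept calcium-dependent enzymes from -0.32 to 0.39, each with 0 calls. In these 5 lists without a call, 4 genes had an unadjusted limma p under 0.05. Over all 14410 kept probe sets, 2852 did, so such p-values were common.

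**Figure D5:**
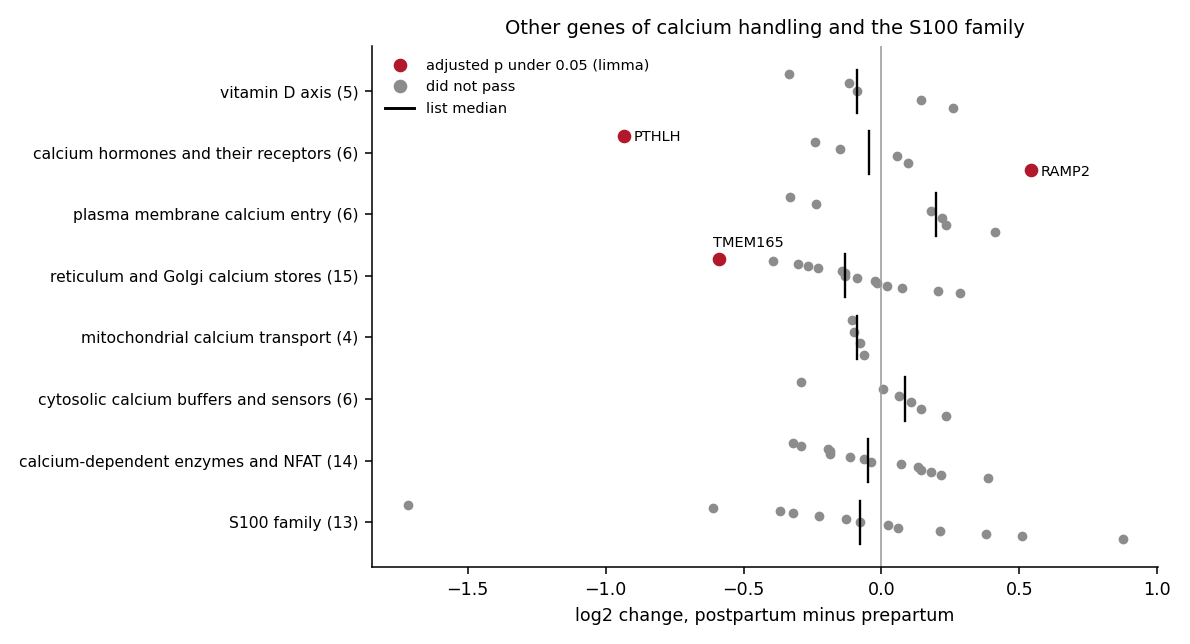
Log2 change (postpartum minus prepartum) of the 69 kept genes of 8 lists, with the number of kept genes in brackets and a line at each list median. RAMP2 (0.54), PTHLH (-0.93) and TMEM165 (-0.59), in red, passed limma's test, and the list medians lie between -0.13 and 0.20. S100A7 is plotted although all its postpartum signals lay below the filter value.

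S100G is a relative of the S100 proteins, and 13 of 18 other family members were kept. None of them passed limma's test at its brightest probe set. Of the 13, 4 had an unadjusted limma p under 0.05, against 2852 of all 14410 kept probe sets. The median change of the 13 was -0.08, with 6 positive and 7 negative. S100A7 is among the 4 and among the 7, although all its postpartum signals lay below the filter value of 25.3. The members named next were picked after their values were seen. S100B, a member found in adipocytes as well as glia, had 290, 530 and 951 postpartum, against 566, 790 and 1320 prepartum, a change of -0.61 (SE 0.16, limma adjusted p = 0.0538) that was negative in 9 of 11 cows. S100B was called in 5 of 27 alternatives. S100A10, the partner of annexin A2, had 1243, 2856 and 4020 postpartum at its brighter probe set, against 2819, 3163 and 4041 prepartum, a change of -0.32 (SE 0.13, limma adjusted p = 0.195). Its second kept probe set had 578, 1145 and 2122 postpartum, against 1478, 1684 and 2324 prepartum, and fell by 0.56 on the log2 scale in 11 of 11 cows (SE 0.14, limma adjusted p = 0.0399), so the probe sets of this gene disagree on the call. S100A13 had a change of 0.51 (SE 0.18, limma adjusted p = 0.134). The neutrophil members S100A8 and S100A9 had changes of 0.21 (SE 0.41) and 0.06 (SE 0.39) over all cows. For both genes the mean was positive in array set 2 and negative in array set 1. S100A8 changed by 1.27 in array set 2 (SD 1.54, n = 6, above 0 in 5) and by -1.06 in array set 1 (SD 0.33, n = 5, below 0 in 5). S100A9 changed by 1.04 in array set 2 (SD 1.32, n = 6, above 0 in 5) and by -1.11 in array set 1 (SD 0.68, n = 5, below 0 in 5). The differences of 2.32 and 2.15 did not pass limma's interaction test (adjusted p = 0.997 for both, unadjusted 0.00160 and 0.00180).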

How the data were processed

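The deposited table holds 1 intensity per probe set and array, which per the submitters' processing notes the authors computed with MAS5. The values are linear, and each array had a mean of 125 after trimming 2% at each end. Of 24016 bovine probe sets, 13292 carried a single gene symbol, 86 several and 10638 none. Symbols were updated through the RefSeq gene table of assembly ARS-UCD2.0 (13263 by Entrez identifier, 2 by accession), and 27 were kept as annotated.

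Intensities were used as log2(signal + 7.78), where 7.78 is the 20th percentile of an array, as the median of the 22 arrays. Probe sets with a mean at or above the 40th percentile (5.05 on this scale, a signal of 25.3) were kept, 14410 in all. The postpartum effect was fitted with limma 3.58.1 in R 4.3.3, with cow as a block, an intensity trend and p-values adjusted by Benjamini-Hochberg across all 14410, called at 0.05. Where genes were counted, the kept probe set with the highest mean stood for its gene (6984 genes). The difference between array sets was the interaction of time and set in the same model. Correlations over cows used 100000 permutations in scipy 1.17.1 under Python 3.11.15. The fitting code was tested on simulated data.

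The cow number in the titles pairs the arrays, as the design text states. Deviations from the group means correlated between the arrays of a cow at 0.18 to 0.43 in 10 cows and at -0.09 in cow 387. The SE of a member's change is its SD over cows divided by the square root of n. Arrays of 1 group come from separate cows, and their number limits the precision.

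The members and all gene lists were chosen with earlier results of these data known, so the members' postpartum change has no test here. Named genes are all member probe sets, each list gene that passed limma's test and the 6 genes most like S100G by either measure. Other genes were named after their values were seen. Alternatives changed the normalization, pseudocount, filter, variance model, test, weights, block, threshold, probe set rule and the cows included. No sequences were used here.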

Additional observations from a re-analysis of the deposited data

Results flagged for a closer look

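S100A12, a neutrophil S100 protein, went up in every cow of one array set and down in every cow of the other. Its change was 2.27 log2 units in array set 2 (SD 1.66, n = 6 cows, all above 0) and -0.80 in array set 1 (SD 0.47, n = 5 cows, all below 0). The smallest rise was 0.20, in cow 384 (163 postpartum, 140 prepartum), whose pairing is uncertain. Such a split was looked for among the member and list probe sets only, and its share over all kept probe sets was not computed. The difference of 3.07 (SE 0.64) did not pass limma's interaction test over all kept probe sets (adjusted p = 0.997, and 0.000325 unadjusted). S100A8 and S100A9 had differences of 2.32 and 2.15 in the same direction, with 1 cow of array set 2 not above 0 in each.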

How the results depend on the processing

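The S100G change was -1.78 (without cow 331) to -1.35 (without cow 384) when single cows were left out. S100G was lower in 11 of 11 cows, so alternatives that only left out cows could not change the sign. The change was -1.57 with quantile normalization, and -1.63 and -1.58 with pseudocounts of 1 and 32. All 20 alternatives differed from the main value by less than 1 SD over cows, which at 1.31 is a wide margin. The number of all probe sets called (494) was 0 with only the cows of array set 2 (1526 in limma before adjustment, p under 0.05), 69 with only those of set 1, 1076 with array weights, 6 without cows 330, 331, 341 and 382, 1070 without cows 384 and 387, 291 with the ordinary paired test, 1048 at an adjusted p under 0.10 and 242 to 969 without single cows (969 if cow 384 was dropped, 280 for 330, 263 for 341, 247 for 346, 314 for 347, 265 for 360 and 242 for 382). The number of calcium genes called (3) became 0 within array set 2 (10 unadjusted), 1 within set 1 and 7 with array weights. It was 0 without cows 330, 331, 341 and 382 (9 unadjusted) and 7 without cows 384 and 387. It was 0 with the ordinary paired test (14 unadjusted) and 7 at an adjusted p under 0.10. Without single cows it ran from 0 (without 346 or 382, with 16 and 14 unadjusted) to 8 (without 384). It was 1 without 330, 341, 347 or 360. The gene called within set 1 was S100A8, and RAMP2, PTHLH and TMEM165 were not called there. With the 60th percentile filter, and without cow 331, 3 were called, with S100B in place of PTHLH. Of 14410 kept probe sets, 1531 had an unadjusted p under 0.05 without cows 330, 331, 341 and 382. There were 2755 with the ordinary paired test, 2467 without cow 346 and 2484 without cow 382. With no replicate block 338 probe sets and 3 calcium genes were called, and with cow as a random replicate block 708 and 6. The calls of RAMP2, PTHLH and TMEM165 were lost in 10, 12 and 6 of 27 alternatives, with no change of sign (PTHLH once because the 60th percentile filter removed it). With the probe set of smallest p for each gene 4 were called, S100A10 being added. The ATP2A2 difference between array sets (0.16) was -0.11 with array weights and -0.38 to 0.66 without single cows. The correlation of the S100G change with that of ATP2A2 probe set 1 was 0.21 without cows 384 and 387. The correlation with ATP2B1 probe set 1 was -0.64 to 0.07 without single cows (0.072 without cow 384). Among the 6 genes most like S100G, 2 were shared without cows 384 and 387, and 3 after group means were subtracted. The causes were not tested. Signals near the filter, as for PTHLH, are the least precise.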

Other observations

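S100A7, psoriasin, an S100 protein of keratinocytes, had 3065 prepartum in cow 341, 1115 in cow 382, 214 in cow 330 and 136 in cow 331, against 1.24 to 36.7 in the other 7 prepartum arrays. The 11 postpartum arrays lay between 4.96 and 19.8. KRT10 was highest in the same 4 prepartum arrays, with 6002 in cow 341, 2850 in cow 382, 643 in cow 330 and 641 in cow 331, while its postpartum signals were 41.9 to 112. All postpartum signals of S100A7 lay below the filter value of 25.3, so its change is not interpreted, although the gene is counted and plotted with the kept list genes.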
